A study of Homo sapiens with 10 samples.

Results

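Promoter-proximal poly(A) peaks were defined as peaks with a summit 0 to 2000 bp downstream of the start of a protein-coding gene, on the strand of that gene. The start was that of the canonical transcript of GENCODE 44, the gene had to span at least 5 kb, and the summit had to lie in an intron or in the 5′ untranslated region (UTR) of that transcript. Summits in coding sequence (CDS) and those from 200 bp before to 600 bp after any annotated transcript end were left out. Of the 178837 peaks of the deposited list, 3531 (1.97%) met this rule. They lay in 3066 of the 17133 genes that had bases open to the rule (17.9%). Within 2 kb of a start there were 4530 summits, of which 666 were lost to transcript end windows, 303 to CDS and 30 to other exon bases.

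The list came from poly(A) 3′-sequencing of IMR-32 cells, a MYCN-amplified human neuroblastoma cell line, in 10 libraries. CDK12 was knocked down with the shRNAs sh22 and sh98, CDK13 with sh701 and sh704, and an shRNA against GFP served as control, with 2 libraries for each shRNA. All groups carried a lentiviral shRNA vector and were selected with puromycin. The authors downsampled the libraries, which came from different batches, merged all of them and ran 1 peak search, so that strand and values of single libraries are absent from it, and neither knockdown could be compared with the control.

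Cleavage and polyadenylation normally take place at the end of a gene, where a complex reads the hexamer AATAAA or a close variant and cuts some bases further on. The same signals occur by chance inside introns, and U1 snRNP bound at 5′ splice sites is known to hold their use back near gene starts. CDK12, a kinase of the RNA polymerase II tail, supports elongation past such signals. The study saw more use of intronic sites after depletion of CDK12 but not of the related kinase CDK13. In its data, reads close to gene starts rose with either knockdown, though significantly less with that of CDK13. Oligo(dT) can also prime on genomic runs of adenine inside a transcript, so a peak upstream of such a run need not mark a cleaved end.

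The peaks carry 3 measures. The summit pileup is the number of extended reads over the summit, recovered as a whole number from the deposited fold and p-value, and the background is the local level that the peak search compared it with. The fold is the pileup over the background, with 1 added to each. Among all members the pileup ranged from 3 to 94 with a median of 9, the background had a median of 0.59 and the fold a median of 6.06. MACS2 keeps 1 read per start position unless set otherwise, so high pileups may be compressed. Marker genes at annotated ends were those of the labelled cell line. All 13 sympathoadrenal neuroblastoma markers had an end peak, with pileups of 16 to 114, while 0 of 4 blood markers, 1 of 4 epithelial, 2 of 4 fibroblast and 1 of 3 endothelial markers had one, with 14 as the highest pileup.

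The strongest members that carried a core hexamer and were not A-rich are shown by 30 bases of their sense strand (GRCh38). A core hexamer was AATAAA or ATTAAA 10 to 40 bp upstream of the 3′ edge. A peak was A-rich where at least 7 of the 10 bases after its 3′ edge were A. Adenine inside the edge, as in the FCF1 and ZNF608 stretches, was not counted. The hexamer is in capitals, and the stretch ends at the 3′ edge of the peak except in FCF1 and NT5M, where it starts at the hexamer, 37 bp from the edge.
GNAS, intron 1, chr20:58893257-58893286, + strand: taataaAATAAAaaaaggttaactataagg
CBX3, intron 1, chr7:26202988-26203017, + strand: tgcAATAAAaaatggcctccaacaaaacta
FCF1, intron 2, chr14:74714887-74714916, + strand: ATTAAAacctaaaaagaaagaaaagaagga
GABPB1, intron 1, chr15:50353768-50353797, - strand: ctcagaATTAAAagatccactctcatttat
NT5M, intron 1, chr17:17304134-17304163, + strand: AATAAAcgttataagttgtcctctttcacc
ZNF608, 5′ UTR, chr5:124746195-124746224, - strand: cctaATTAAAaaatgataaaggattaaaag
ZFP90, intron 2, chr16:68540339-68540368, + strand: caaccaaaAATAAAaccagggctgattctc
CALM2, intron 1, chr2:47174738-47174767, - strand: taagcttttttttttaAATAAAcgaagggt
TMED2, intron 1, chr12:123585275-123585304, + strand: tgaggATTAAAaacctattgagtgctaggc

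GNAS, which encodes the stimulatory G protein alpha subunit, had the strongest of these, with a pileup of 43 over a background of 3.79 at 1796 bp. CBX3, a heterochromatin protein 1 gene, had 36 over 2.91 at 1190 bp. FCF1, a ribosomal RNA processing factor, had 36 over 1.31 at 1709 bp, and this pileup was higher than the 13 at its annotated end. GABPB1, a subunit of an ETS-family transcription factor, had 36 over 4.62 at 1344 bp, with 24 at its end. NT5M, a mitochondrial deoxyribonucleotidase, had 33 over 0.59 at 700 bp, the highest fold of the group (21.4), with 15 at its end. Pileups near the start were thus above those at the annotated end in FCF1, GABPB1 and NT5M, and also in ZNF608 (31 against 21), ZFP90 (29 against 17) and TMED2, a cargo receptor of the early secretory pathway (26 against 14). They were below it in GNAS (43 against 87), CBX3 (36 against 72), the calmodulin gene CALM2 (28 against 56) and UBE2V2, a ubiquitin-conjugating enzyme variant (28 against 52). In GNAS, CBX3 and GABPB1 the summit lay in an exon of another annotated transcript. All of these members were picked by their pileup near the start, and compression of high pileups may differ between start and end. The order of start and end pileups is therefore not a measure of how often each site was used.

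The strongest A-rich members are shown by the 15 bases before and the 15 bases after the 3′ edge, with runs of 3 or more A in capitals, because they show the other kind of sequence at which a peak formed.
TLE4, 5′ UTR, chr9:79572353-79572382, + strand: ataacaaccaattAAAAgacAAAtAAAAAA
ATXN1, intron 1, chr6:16759529-16759558, - strand: AAAAAAAAAAAAAAAAAAAAAAAAAAAAca
ANKRA2, 5′ UTR, chr5:73565496-73565525, - strand: aaggagagagggacAAAAAAAAgAAAAccc
SEZ6L2, 5′ UTR, chr16:29899105-29899134, - strand: ggAAAAAAAAAAAAAAAAAAAAAAcaatta

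TLE4, a Groucho-family corepressor, had a pileup of 63 over a background of 1.88 at 111 bp, with 7 A in the 10 bases after the edge. ATXN1, the gene of spinocerebellar ataxia type 1, had 38 over 0.9 at 1832 bp with 10 of 10 A. ANKRA2, an ankyrin repeat protein gene overlapped here by a gene of the opposite strand, had 36 over 1.36 at 85 bp with 9 A, and SEZ6L2, a neuronal membrane protein gene, had 33 over 0.84 at 396 bp with 9 A. The ANKRA2 peak also had the core hexamer ATTAAA 24 bp upstream of its edge, outside the bases shown. The remaining one of the 5 strongest lay in the 5′ UTR of PABPC1, the cytoplasmic poly(A)-binding protein whose 5′ UTR is known for an adenine-rich element, with 60 over 1.9 at 62 bp. Of these 5, only PABPC1 had a higher pileup at its annotated end (83) than near its start, since TLE4 had 21, ATXN1 25, ANKRA2 21 and SEZ6L2 18 there. They too were picked by their pileup near the start, so the same limit applies.

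Peaks were sparsest in the first 400 bp, were densest at 800 to 1000 and at 1200 to 1400 bp, and were less dense again at the end of the window. Per 200 bp, 189 members lay in the first bin, 177 in the second, 279 in the third and 421 in the fourth, and each of the later bins held 366 to 454. Divided by the bases open to the rule, this was 72.1 peaks per Mb in the first 200 bp (95% exact Poisson interval 62.2 to 83.2) and 65.6 in the second bin (56.3 to 76.0). It reached 154 per Mb at 800 to 1000 bp (140 to 168) and 155 at 1200 to 1400 bp (141 to 170), and was 124.96 at 1800 to 2000 bp (112 to 138). Over the whole window the density was 123 per Mb (119 to 127) in 28.7 Mb, against 106 per Mb (104 to 108) 2 to 10 kb from the same set of starts. The ratio was 1.17 (95% exact interval 1.12 to 1.21, exact conditional binomial p = 3.33e-15, two-sided), and against peaks over 10 kb from a start it was 1.34 (1.29 to 1.38). The latter, to which only genes over 10 kb long contribute deeper bases, was not stratified by gene.

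A-rich and A-poor members followed different courses. A-poor members, those with fewer than 7 A after the edge, numbered 1949 (55.2%) and had a density of 68.0 per Mb (65.03 to 71.1), against 36.3 per Mb (35.2 to 37.5) at 2 to 10 kb and 25.7 per Mb (25.4 to 26.03) further in. The A-poor ratio of the first 2 kb to the 2 to 10 kb zone was 1.87 (1.77 to 1.98, exact conditional binomial p = 4.2e-104). The 1582 A-rich members had 55.2 per Mb (52.5 to 57.996) against 69.3 per Mb (67.7 to 70.9) at 2 to 10 kb, a ratio of 0.797 (0.754 to 0.841, exact conditional binomial p = 4.94e-17). With the gene as the stratum, over 16445 genes with bases in both zones, the Mantel-Haenszel ratio was 1.92 (1.82 to 2.03) for A-poor and 0.842 (0.797 to 0.890) for A-rich peaks. Among peaks with −log10 q-values of 20 or more the A-rich ratio turned to 1.64 (exact conditional binomial p = 0.00259), while the A-poor ratio was 1.99. All of these intervals and tests cover counting error in 1 pooled list and treat peaks as independent, which neighbouring peaks of a gene are not.

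**Figure D1:**
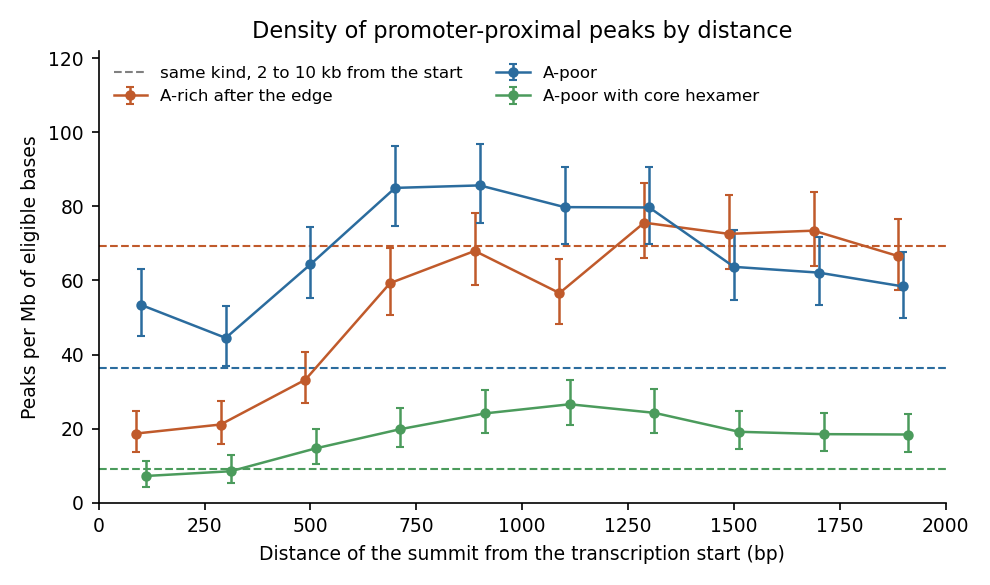
Peaks per Mb of eligible bases (y axis) in bins of 200 bp from the start (x axis, bp) for A-rich members, A-poor members and the A-poor members with a core hexamer, which are part of the A-poor ones; bars are 95% exact Poisson intervals and dashed lines the same kind of peak 2 to 10 kb from a start. A-poor members stood above their dashed line (36.3 per Mb) in each bin, while A-rich members stayed below theirs (69.3 per Mb) up to 1200 bp.

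The sequence available to form each kind of peak also changed along this window. GC content of the eligible bases fell from 65.3% in the first 200 bp to 44.7% in the last, and positions followed by an A-rich stretch rose from 0.381% to 1.95% of them. Set against those positions, A-rich members were not scarcer near the start. There were 4.09 A-rich members per 1000 A-rich positions within 2 kb (3.89 to 4.29), 3.31 at 2 to 10 kb (3.23 to 3.39) and 2.86 beyond (2.84 to 2.88). Core hexamers were likewise thinner near the start, at 0.905 per kb of eligible bases against 1.35 at 2 to 10 kb and 1.67 beyond 10 kb. A-poor peaks with such a hexamer numbered 20.3 per 1000 hexamers within 2 kb (18.6 to 22.1), 6.68 at 2 to 10 kb (6.26 to 7.12) and 3.56 beyond (3.47 to 3.66). The first value was thus 3.04 times the second (2.73 to 3.38) and 5.69 times the third (5.19 to 6.23). These ratios were not stratified by gene, and only genes over 10 kb long have bases in the furthest zone. The count per hexamer and per A-rich position was added after the densities had been seen.

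Members differed in sequence from the deeper intronic peaks of the same genes, which numbered 29176 in 2521 genes. The A-rich share was 44.8% of members (95% Wilson interval 43.2% to 46.4%) and 72.4% of deeper peaks (71.9% to 72.9%), a difference of -27.6 percentage points (95% Newcombe interval -29.3 to -25.9). With genes as strata the common odds ratio was 0.363 (Mantel-Haenszel 95% interval 0.332 to 0.396). Of the 2521 genes, 815 had the higher A-rich share in members, 1259 the lower and 447 were tied. A core hexamer stood upstream of 632 members (17.9%, 16.7% to 19.2%) and of 12.8% of deeper peaks (12.5% to 13.2%), a difference of 5.06 points (3.77 to 6.42). The stratified odds ratio was 1.55 (1.39 to 1.73). The count of genes ran the other way here, with 507 higher, 1058 lower and 956 tied. A gene with 1 member can only have a share of 0 or 100%, so an even split of genes is not what equal shares would give, and no p of the sign test is given for either share.

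The hexamer shares were also compared within each class. Among A-poor peaks alone, 26.99% of members (25.1% to 29.0%) and 23.7% of deeper peaks (22.8% to 24.6%) had a core hexamer, a difference of 3.30 points (1.16 to 5.51) and a stratified odds ratio of 1.28 (1.10 to 1.49). Among A-rich peaks the shares were 6.70% and 8.70%, with a difference of -1.997 points (-3.19 to -0.606) and a stratified odds ratio of 0.859 (0.662 to 1.11). Positions taken at every 50th eligible base near the start, with no regard to peaks, had the hexamer in 2.54%, and intronic positions further in had it in 4.59%. With any of 12 hexamer variants in place of the 2 core ones the shares were 31.4% and 30.2%, and the interval of that difference included 0 (-0.396 to 2.84).

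The hexamer had a preferred place upstream of A-poor members. It began 21 to 30 bp before the edge in 15.9% of them (14.3% to 17.6%), 11 to 20 bp before in 8.004% and 61 to 70 bp before in 1.23%. Deeper A-poor peaks shared this place, with 12.8% at 21 to 30 bp and 8.84% at 11 to 20 bp. The 526 A-poor members with a core hexamer had it at a median of 23 bp (quartiles 20 and 27.75), and it was AATAAA in 400 and ATTAAA in 126. In A-rich members no bin of 10 bp within 100 bp exceeded 2.72%. Another 1423 members (40.3%) had neither a core hexamer nor an A-rich stretch. Adenine made up 87.5% of the third base after the edge in A-rich members and 36.9% in A-poor members with a hexamer, and the last base inside the edge was adenine in 46.5% of A-rich members, fewer than the 56.5% at the base before it.

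**Figure D2:**
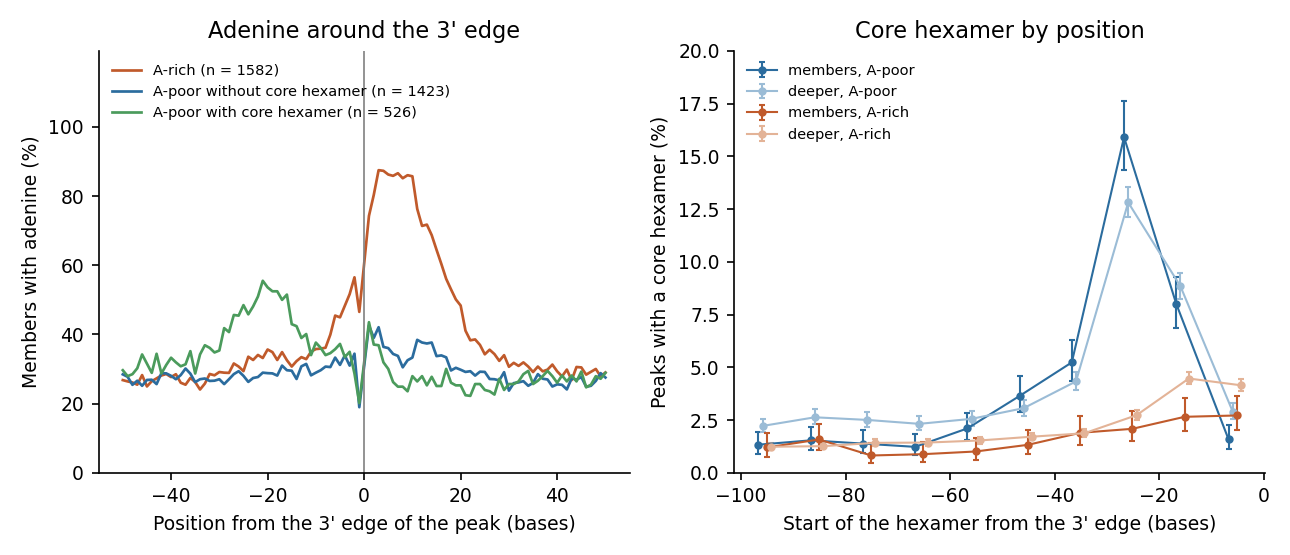
Left, share of members with adenine (y axis, %) at each base around the 3′ edge of the peak (x axis, bases, sense strand of the gene) for 3 classes of member. Right, share of peaks with a core hexamer starting in each 10-bp bin upstream of the edge, for members and for deeper intronic peaks of the same genes, with 95% Wilson intervals; in A-poor members it peaked at 15.9% in the bin 21 to 30 bp upstream, and in A-rich members it stayed at or below 2.72%.

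In strength the peaks near starts and the deeper ones differed mainly at the upper end. The median pileup was 9 in both, the 90th percentile 17 in members and 16 in deeper peaks, and the 99th percentile 31 and 26. Within genes the median pileup of members was higher in 1154, lower in 1170 and tied in 197 (two-sided exact sign test p = 0.756), and the direction of this balance changed with the settings. The share of peaks with −log10 q-values of 20 or more was 3.79% in members (134 peaks) and 2.11% in deeper peaks. Median GC content of the 200 bp around the summit was 44% in members and 39.5% in deeper peaks, and it was higher in members in 1539 genes, lower in 953 and tied in 29 (exact sign test p = 5.36e-32). The tiled positions described above had a mean GC content of 51.1% near starts and 41.1% further in. The test thus cannot separate the peaks from the location in which they lie. A motif of 6 bases from the 5′ splice site (GGTAAG or GTGAGT or GGTGAG, sense strand) stood within 200 bp upstream of 15.7% of members and 13.6% of deeper peaks. The stratified odds ratio was 1.13 (1.01 to 1.27). The tiled positions near starts held it in 18.3% and those further in in 11.2%, so members were below the positions around them and deeper peaks above theirs.

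Strand was taken from the gene, and the readings on the other strand give a measure of how far this may err. Members with an A-rich stretch past their opposite edge on the opposite strand numbered 195 (5.52%), against 3.35% of deeper peaks (stratified odds ratio 1.03, 0.842 to 1.26). A core hexamer on the opposite strand was found in 5.86% of members, against 17.9% on the strand of the gene. An annotated gene of the opposite strand overlapped 333 members (9.43%). Without them the A-poor density ratio was 1.93, and without peaks A-rich on the opposite strand it was 1.98. Members in an exon of another transcript numbered 360 (10.2%), and the A-poor ratio was 1.88 without such peaks.

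Members in the 5′ UTR differed from intronic ones. There were 324 in the 5′ UTR (9.18%) and 3207 in introns (90.8%), and the UTR took 85.2% of the members in the first 200 bp but 1.37% of those in the last. The UTR members were A-rich in 27.5% (22.9% to 32.6%), against 46.6% of intronic ones (44.8% to 48.3%). They carried a core hexamer in 8.02% against 18.9%, and had a median GC of 51.3% against 43%. Their −log10 q-value was 20 or more in 8.95% against 3.27%, and the 90th percentile of their pileup was 21.7 against 17. The UTR members lay at a median of 201.5 bp from the start, against 1191 bp. All members in the first 200 bp were A-rich in 25.9% and had a median GC of 54.5%. The comparison was not matched for distance. UTR members also overlapped a gene of the opposite strand more often (17.9% against 8.57%). The 5 strongest were TLE4 and PABPC1, described above, SLC38A2, a glutamine transporter (42 over 1.21 at 154 bp), the cell cycle transcription factor E2F3 (39 over 1.19 at 271 bp) and the histone chaperone ANP32E (38 over 1.23 at 274 bp). None of the last 3 was A-rich or had a core hexamer. E2F3 had no peak at an annotated end, SLC38A2 had 25 and ANP32E 48 there, and a gene of the opposite strand overlapped the SLC38A2 peak.

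Of the intronic members, 2885 (89.96%) lay in intron 1, 279 (8.70%) in intron 2 and 43 (1.34%) further on. Those of intron 1 stood at a median of 891 bp from the 5′ splice site, in introns with a median length of 7808 bp. In intron 1, 143 lay in the first 200 bp, 472 from 201 to 500 bp and 1033 from 501 to 1000 bp. The bins differ in width and were not divided by eligible bases, so these counts are not densities. From the first of these bins to the bin of 1501 to 2000 bp, the A-rich share rose from 32.2% to 60.1% and the share with a core hexamer fell from 23.1% to 16.3%.

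The rule has a threshold at 2000 bp, and the peaks on its 2 sides were as follows. The 365 members at 1801 to 2000 bp were A-rich in 53.2% and had a median GC of 41%, and the 358 peaks at 2001 to 2200 bp were A-rich in 57.3% with a median GC of 42%. The median pileup was 9 on both sides.

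The 2 highest pileups of all members belonged to genes of chromosome 2 and stood on high backgrounds. MYCN, the amplified driver of this cell line, had 94 over 8.66 at 904 bp in intron 1 and 25 over 8.6 at 378 bp, against 73 at its annotated end. Both peaks were A-poor, neither had a core hexamer, and a gene of the opposite strand overlapped both, so their strand is uncertain. LRATD1, on the same chromosome arm as MYCN, had 73 over 13.7, 49 over 14.18 and 37 over 12.54 at 674, 1084 and 305 bp, all A-poor without a hexamer, against 54 at its end. Its summit at 1084 bp lay in an exon of another annotated transcript. ANTXR1, the anthrax toxin receptor 1 gene, had 25, 23 and 14 over backgrounds of 4.76, 4.79 and 4.26. Of 29 members with a background of 3 or more, 12 lay on chromosome 2, and 10 of these in MYCN, LRATD1, ANTXR1 and ETAA1. ETAA1, a replication stress response gene named after its values were seen, had 50 over 6 and 30 over 5.54. Copy number was not measured here, and its part in these pileups was not tested.

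Most genes held a single member. There were 2634 genes with 1, 400 with 2, 31 with 3 and 1 with 4. BCL11B, a zinc finger transcription factor of neurons and T cells, held the 4, with pileups of 11, 13, 13 and 14 at 242, 519, 747 and 1817 bp, 3 of them in its 5′ UTR. Those at 519 and 747 bp had an A-rich stretch on the opposite strand. Next by summed pileup were LRATD1 (159) and ANTXR1 (62), then PRMT2, an arginine methyltransferase (60), and CALM2 (58), each with 3. PRMT2 had 30 over 1.07 at 776 bp, 16 at 61 bp and 14 at 1220 bp, the first 2 of them A-poor without a hexamer and in the 5′ UTR. CALM2 had 15 at 103 bp and 15 at 372 bp besides the A-poor peak with a hexamer shown above. The CALM2 summits at 103 and 372 bp lay in an exon of another annotated transcript.

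Among the other genes tied to CDK12 loss and to termination in this study, CDK13 and CCNK had a member below the median pileup of 9, BRCA1 and PCF11 had members above it, and CDK12, BARD1 and BLM had none. CDK12 itself had 0 members in 955 eligible bases, and its nearest deeper peak stood 5064 bp from the start. CDK13 had 1, with a pileup of 6 over 0.64 at 1809 bp, A-poor and with ATTAAA 26 bp upstream. Their partner cyclin K (CCNK) had 1, with 7 over 0.57 at 1926 bp, followed by 9 of 10 A. BRCA1, a gene of homologous recombination, had 3, with 13 over 1.13 at 1969 bp, 11 at 1250 bp and 11 at 552 bp, and the first and last were A-rich. PCF11, a termination factor that binds the polymerase tail, had 1, A-poor and without a core hexamer, with 10 over 1.24 at 742 bp. The summits in CDK13 and PCF11 and that of BRCA1 at 552 bp lay in an exon of another annotated transcript. The BRCA1 peak at 1250 bp had an A-rich stretch on the opposite strand. The recombination genes BARD1 and BLM had 0 each, with end pileups of 17 and 32 and their nearest deeper peaks at 3604 and 2348 bp. Since the list pools all libraries, these values do not show in which cells the reads arose.

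Members were more frequent in genes with more reads at their ends. Of the 4611 eligible genes without a peak at an annotated end, 4.60% held a member (4.03% to 5.24%). Of genes with an end pileup of 3 to 14, 14.1% did (12.9% to 15.5%), of those with 21 to 26, 24.4% (22.7% to 26.2%), and of the 2489 genes with 36 to 114, 27.8% (26.1% to 29.6%). A-rich members levelled off, at 11.3% of genes with an end pileup of 15 to 20 and 12.5% of those in the highest class. A-poor members went on from 12.2% to 17.2%. In genes without an end peak A-poor members were at 19.2 per Mb (16.3 to 22.6) and A-rich ones at 11.5 per Mb (9.22 to 14.1), and in the highest class at 119 per Mb (109 to 130) and 81.3 per Mb (72.8 to 90.5). Of the 3066 genes with a member, 93.1% had an end peak, against 68.7% of the 14067 eligible genes without one, and their median length was 44.8 kb against 33.6 kb.

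**Figure D3:**
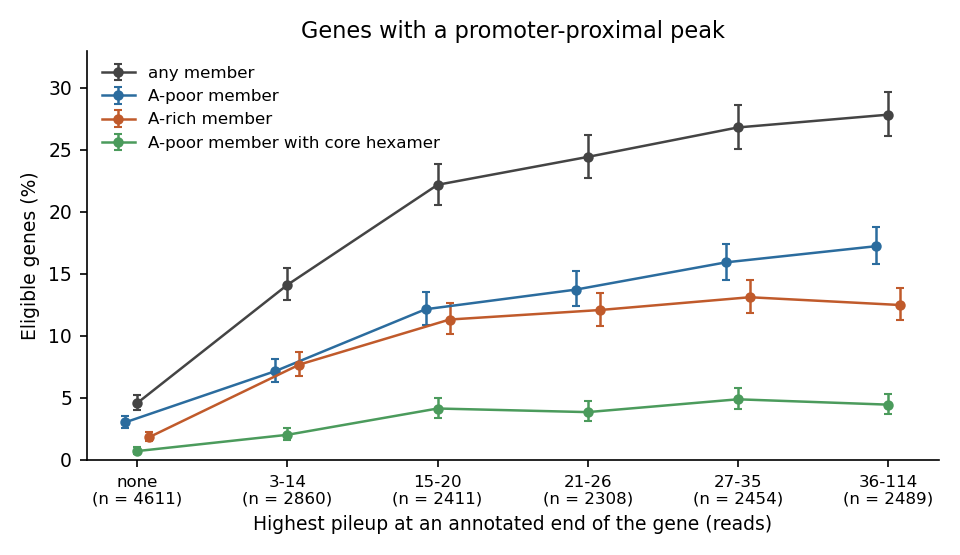
Share of eligible genes (y axis, %) that held a member of each kind, in classes by the highest pileup at an annotated end of the gene (x axis, reads; number of genes below each class), with 95% Wilson intervals. The share with any member went from 4.60% without an end peak to 27.8% in the highest class. The A-poor share was above the A-rich share without an end peak (3.04% against 1.84%) and in the highest class (17.2% against 12.5%), and below it at an end pileup of 3 to 14 (7.17% against 7.69%).

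For gene groups, the shares of genes with a member are given beside 17.9% of all eligible genes and 22.8% of the 12522 eligible genes with an end peak, of which 10.4% and 13.1% had an A-poor member. Nearly all genes of each group had an end peak, with median end pileups of 25 to 44 against 23 for all. Of all eligible genes with an end pileup of 27 to 35, 26.8% held a member, and of those with 36 to 114, 27.8%. DNA damage response genes had a median end pileup of 29.5. Of the 141 eligible ones, 37 held a member (26.2%, 19.7% to 34.1%), near the 26.8% of all genes with 27 to 35. The strongest were RAD52, a recombination mediator (23 over 0.86 at 619 bp, with AATAAA 40 bp upstream), POLL, DNA polymerase lambda (21, A-rich, overlapped by a gene of the opposite strand), the mismatch repair gene PMS1 (17, with AATAAA) and the Fanconi anemia gene FANCA (16, A-rich). Of 22 cleavage and polyadenylation factor genes, 8 did (36.4%, 19.7% to 57.0%). Among them RBBP6 had 30 followed by 8 of 10 A, CPSF6, a subunit of cleavage factor I, had 18 with AATAAA 25 bp upstream and no A-rich stretch, and WDR33, which reads the hexamer, and SCAF8, which restrains early polyadenylation, had 14 and 12, both with 10 of 10 A.

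Of 29 genes of early termination and nuclear RNA decay, 7 held a member (24.1%, 12.2% to 42.1%), and each of the 7 had an A-poor one (24.1%, against 13.1% of eligible genes with an end peak). The median end pileup of this group was 30, and 15.9% of all eligible genes with 27 to 35 had an A-poor member. PPP1R10 (PNUTS) had 25 at 1628 bp and WDR82 22 at 675 bp, both scaffold parts of a phosphatase complex of termination, the helicase MTREX 11, and the Integrator subunit INTS3 9 followed by 10 of 10 A. Of 38 U1 snRNP, SR and hnRNP protein genes, 14 did (36.8%, 23.4% to 52.7%), with HNRNPK at 26, SRSF10 at 23 with ATTAAA, SRSF3 at 17 and the U1-linked LUC7L3 at 17 in its 5′ UTR. The SRSF3 peak was followed by 8 of 10 A and had AATAAA upstream. Of 40 genes of polymerase II pausing and elongation, 14 did (35.0%, 22.1% to 50.5%), with the elongation factor IWS1 at 24, the FACT subunit SUPT16H at 16, POLR2A, the largest polymerase II subunit, at 15 and CCNT2, a cyclin of P-TEFb, at 14. None of these 4 was A-rich. Of the genes named in this paragraph, HNRNPK had its summit in an exon of another annotated transcript. The WDR82 peak had an A-rich stretch on the opposite strand.

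The 21 neuroblastoma transcription factor genes had a median end pileup of 38.5. Of all eligible genes with an end pileup of 36 to 114, 27.8% held a member and 17.2% an A-poor one. Of the 21 genes, 12 held a member (57.1%, 36.5% to 75.5%), and 9 of them had an A-poor one (42.9%, against the same 13.1%). Besides MYCN these were led by PHOX2A, a determinant of noradrenergic neurons (33 over 4.12 at 1470 bp, A-poor, 114 at its end), GATA3 (22 over 2.89 at 28 bp, A-rich) and ISL1 (21 over 1.21 at 900 bp, A-rich). Of 48 chromatin regulator genes, with a median end pileup of 31.5, 12 held a member (25%, 14.9% to 38.8%). Of all eligible genes with an end pileup of 27 to 35, 26.8% did. HDAC4 had 28, BPTF 21 with AATAAA 17 bp upstream, and CHD1 14. SMARCC1 had 12, with AATAAA 23 bp upstream and followed by 10 of 10 A. The study had also scored 809 genes for premature cleavage and polyadenylation in nascent RNA of cells treated with THZ531, an inhibitor of CDK12 and CDK13, which is a list from other libraries. Of its 800 eligible genes, 269 held a member (33.6%, 30.4% to 37.0%), 171 an A-poor member (21.4%, against 13.1% of eligible genes with an end peak) and 59 an A-poor member with a core hexamer (7.38% against 3.82%). Their median end pileup was 25, and of all eligible genes with 21 to 26, 24.4% held a member and 13.7% an A-poor one. The study found these genes to be longer, with more introns and higher expression, and none of these features was matched here. The list also pools reads of control and CDK13 knockdown cells, so this overlap was not tested for a link to CDK12.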

How the data were processed

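Poly(A) 3′-sequencing reads of 10 libraries of IMR-32 cells were trimmed and mapped to GRCh38 with STAR 2.5.1b by the authors, who downsampled the libraries, merged them and ran MACS2 2.1.1 once on the merged reads, extended to 100 bp. The authors' deposited fold is a ratio, the summit pileup over the local background with 1 added to each. Their deposited p-values and q-values are on the −log10 scale. No depth or value per library is known from the list, and 0 columns of per-sample values were left unused. Whether duplicate reads were kept is not given in the sources used here.

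The whole-number pileup was recovered from fold and p-value (largest miss 0.000168 on the −log10 scale). GENCODE 44 gave genes, and a summit that met the rule for several genes went to the nearer start. The list still held 141 members followed, inside 50 bp, by 25 bases that hold 3 or fewer bases other than A, 116 of them without any of 12 hexamers within 100 bp, so it precedes the authors' filter on such peaks. Densities were compared with an exact conditional binomial test, shares with Newcombe intervals, counts of genes (the planned sign test is void where most genes hold 1 member) and an added Cochran-Mantel-Haenszel test by gene, and pileup and GC with the sign test. Genes and peaks are not replicates of a condition, and intervals (95%) cover counting error only. Members and gene lists were chosen with earlier results of these data known.

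Named were the 10 strongest A-poor members with a core hexamer, the 5 strongest A-rich, the 5 genes with most members, the genes the study names (1 of them is not reported here), up to 4 genes per list and the 5 strongest in a 5′ UTR. The alternatives changed the q-value threshold, position, window, starts, strands, transcript ends, CDS, merging, motifs and deeper peaks. The steps were tested on simulated data. Tools were samtools 1.23.1, pysam 0.24.0, pandas 2.3.3, scipy 1.17.1, numpy 2.4.6 and matplotlib 3.10.9 under Python 3.11.15.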

Additional observations from a re-analysis of the deposited data

How the results depend on the processing

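Of 110 recomputed values for 8 results, 95 kept their direction and their side of the threshold. The A-poor density ratio stayed between 1.58 and 1.99 in all 12 alternatives, the A-rich share difference stayed below 0 (-34.1 to -1.12 points, the latter with the 10 bases after the summit) and the GC difference kept its direction in all 14. The number of members moved to 134 with −log10 q-values of 20 or more, to 1520 with a 1 kb window and to 6211 with the start of any protein-coding transcript, by construction. The overall density ratio fell to 1.02 with the 1 kb window (exact p = 0.385). The A-rich density ratio turned to 1.64 with −log10 q-values of 20 or more. The core hexamer difference was 3.95 points at that threshold (interval -9.05 to 14.6) and 1.205 points with 12 hexamers, both with intervals that include 0, and members had the higher share in 32.4% of untied genes, a count that is distorted where a gene has 1 member. The share of untied genes with the higher pileup in members, 49.7%, turned to 53.0% with −log10 q-values of 5 or more (exact sign test p = 0.018), 64.5% with 20 or more, 51.997% with any start (p = 0.0185), 50.2% with genes of 1 strand, 50.5% with fold in place of pileup, and, in alternatives added after seeing the data, 50.7% without exons of other transcripts and 50.3% without peaks A-rich on the opposite strand. Where no construction is named, the cause was not tested. No paired analysis was possible because reads of every library were merged before the peak search, and for the same reason no replicate could be left out.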

Other observations

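Members also differed from deeper peaks in the width of the interval. It had a median of 107 bp in members and 104 bp in deeper peaks, and was wider in members in 1412 genes, narrower in 1006 and tied in 103 (two-sided exact sign test p = 1.51e-16). The direction within genes also differed by class for pileup. Among A-poor peaks the median pileup of members was higher in 493 genes and lower in 610 (exact sign test p = 0.000473), and among A-rich peaks it was higher in 560 and lower in 474 (p = 0.00818), with 90 and 93 ties. Both splits were made after the pooled values had been seen, and the difference between the classes was not tested.

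VPS9D1 and RTN4, a reticulon gene, named after their values were seen, held the strongest members that no rule for named genes covered apart from ETAA1. VPS9D1 had 52 over 1.63 at 1421 bp, against 8 at its annotated end, and RTN4 39 over 2.16 at 1548 bp, against 37 at its end. Both were A-poor and neither had a core hexamer.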
